A study of Mus musculus with 4 samples.

Results

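The genes described here are 39 genes of interferon signalling and of the interferon response, out of the 24421 genes in the deposited table of 4T07 cells. They were chosen by symbol from a given list, and all 39 symbols were found. The study sequenced polyadenylated RNA of 4T07 cells, a murine breast cancer line from Balb/cfC3H mice. The labels give 2 libraries of the genotype Six2 Overexpression and 2 of the genotype control. All were grown without further treatment in DMEM with calf serum and lysed 48 h after plating. The libraries of each group carry the replicate numbers 1 and 2. The comparison of the groups asks which transcripts differ with the Six2 label, and the comparison of number 2 with number 1 asks what differs between libraries that share a label. The labels do not say whether the libraries of a group came from separate cultures or clones, how Six2 was introduced, or what the numbers share. The p-values therefore set a difference against the spread of these 4 libraries alone, and that spread may be technical.

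Type I interferons bind a receptor made of the IFNAR1 and IFNAR2 chains, whose kinases JAK1 and TYK2 activate STAT2 among others. With IRF9 it joins a complex that binds interferon-stimulated response elements in the promoters of stimulated genes, while the response to interferon gamma works through gamma-activated sites. In mammary carcinoma cells the response can be set off by interferon from other cells or by the cell's own sensing of stray nucleic acid, and part of it can stay on at a low level in culture.

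Promoter sequences of 4 members are shown because they carry, at close spacing, the letters of the element that defines the family, and that of Irf1 because it carries the gamma-activated form without it. The windows come from RefSeq on GRCm38.p6 and were given for 31 of the 39 members. The letters searched were GAAANNGAA, part of the interferon-stimulated response element, and TTCNNNGAA, part of the gamma-activated site, on both strands from 250 bases before to 50 bases after the annotated start. Each line gives the 150 bases before the start, 5′ to 3′ on the strand of the gene, with matches in capitals. They lie at chr4:156200819-156200968 on the minus strand for Isg15, chr19:34640739-34640888 on the plus strand for Ifit1, chr5:120907526-120907675 on the minus strand for Oas1a, chr8:71537473-71537622 on the minus strand for Bst2 and chr11:53769864-53770013 on the plus strand for Irf1.
Isg15: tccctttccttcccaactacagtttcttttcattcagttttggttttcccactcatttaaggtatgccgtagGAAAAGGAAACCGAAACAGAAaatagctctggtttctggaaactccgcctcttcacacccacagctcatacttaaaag
Ifit1: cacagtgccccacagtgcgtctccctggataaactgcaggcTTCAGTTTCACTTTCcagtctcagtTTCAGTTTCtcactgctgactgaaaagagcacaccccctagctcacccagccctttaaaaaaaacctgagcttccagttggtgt
Oas1a: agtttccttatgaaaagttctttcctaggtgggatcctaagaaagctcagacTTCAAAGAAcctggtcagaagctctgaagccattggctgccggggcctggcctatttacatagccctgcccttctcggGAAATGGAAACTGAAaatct
Bst2: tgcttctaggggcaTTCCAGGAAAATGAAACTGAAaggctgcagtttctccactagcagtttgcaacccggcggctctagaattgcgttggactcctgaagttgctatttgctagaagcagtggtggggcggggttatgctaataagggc
Irf1: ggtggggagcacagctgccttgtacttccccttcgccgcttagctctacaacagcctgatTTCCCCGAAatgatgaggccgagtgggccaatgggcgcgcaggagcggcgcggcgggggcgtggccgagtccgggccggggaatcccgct
Isg15 had 3 overlapping matches to GAAANNGAA, which begin 78, 72 and 66 bases before the start. In Ifit1 the 3 matches lie on the opposite strand and so read as TTCNNTTTC, and in Oas1a and Bst2 an overlapping pair stands beside 1 match to TTCNNNGAA, which in Bst2 shares bases with the pair. Irf1 had 1 match to TTCNNNGAA, 90 bases before the start of this window, which is the upstream one of the pair given for the gene.

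Over the windows of 300 bases, 17 of the 31 members (54.8%) held GAAANNGAA, against 9.76% of the 27025 genes with a window. TTCNNNGAA stood in 12 of the 31 members (38.7%), against 9.55% of those genes. The letters of both motifs shared bases in 2 member windows. Irf7 and Irf9 matched neither motif in these windows. A match describes letters and is no evidence that a factor was bound.

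Levels are given in RPKM, reads scaled by the length of the gene model and the size of the library, and can be compared between genes. The 2 most abundant members were Ifitm3 and Ifitm2, membrane proteins that restrict virus entry, with a mean of more than 100 RPKM over the 4 libraries. Together they made up 86.3% and 84.3% of the summed RPKM of the 39 members in Six2-labelled replicates 1 and 2, against 84.8% and 84.5% in control replicates 1 and 2. A further 8 members had a mean of 10 to 100 RPKM, 17 lay between 1 and 10 RPKM, and 12 lay below 1 RPKM. Mx1, Mx2, Rsad2 and Cmpk2, which are counted among interferon-stimulated genes, reached no more than 0.276 RPKM in any library. Mx2 is annotated as a polymorphic pseudogene, so these levels are given as values only. Mx1 had 8 and 7 reads in Six2-labelled replicates 1 and 2, against 2 and 0 reads in control replicates 1 and 2.

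**Figure D1:**
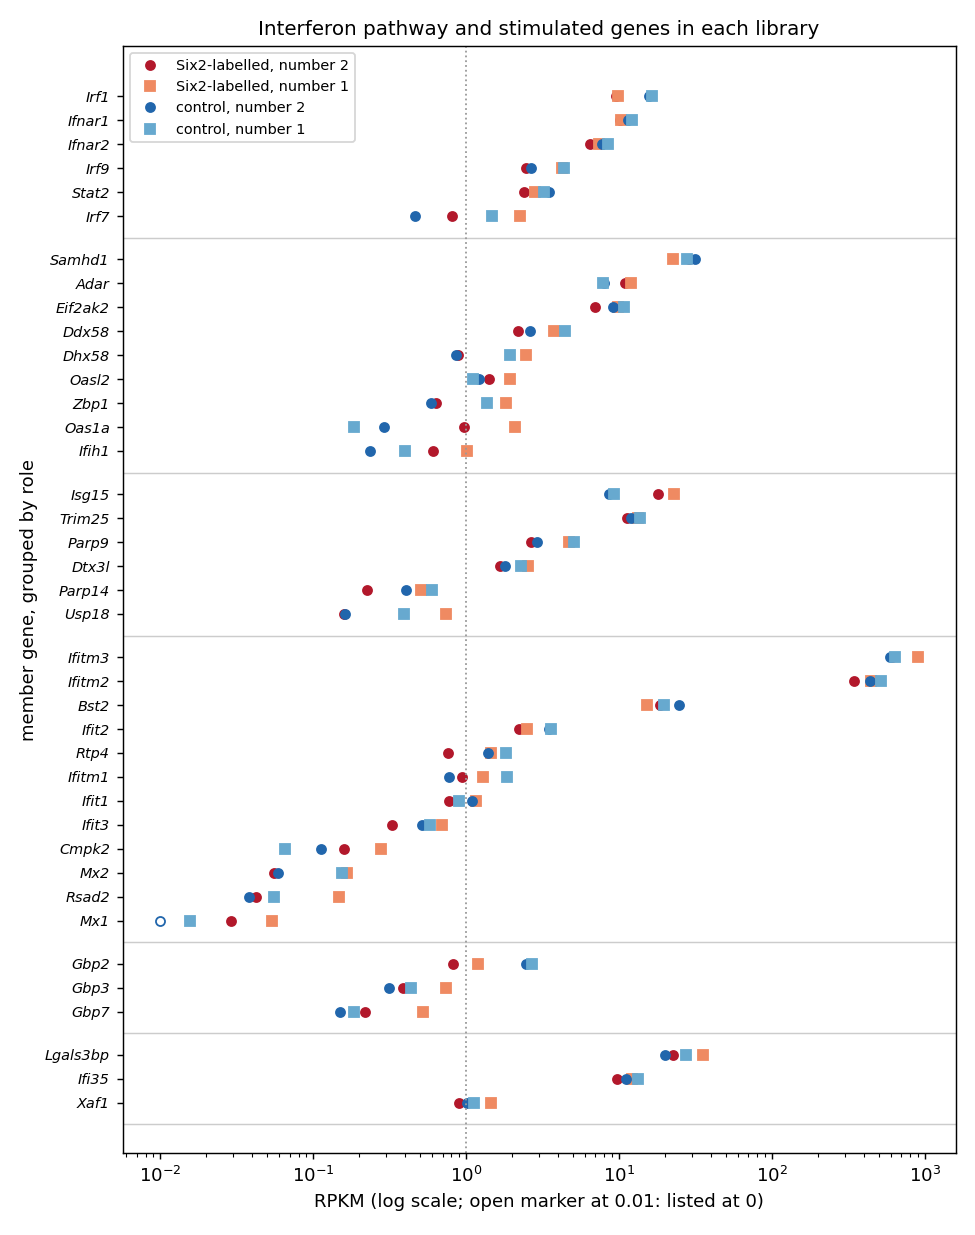
RPKM of the 39 members on a log axis, grouped by role; each point is 1 library, red for Six2-labelled and blue for control, circles for number 2 and squares for number 1, and the dotted line marks 1 RPKM. Ifitm3 and Ifitm2 stand above 100 RPKM, and for many genes the squares lie to the right of the circles of the same colour.

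Read totals recovered from the RPKM steps were 41881864 to 81524250 per library, with Six2-labelled replicate 2 the deepest, and a listed 0 allows up to 3 reads, or 0.0368 to 0.0716 RPKM over 1 kb, for counting error only. Six2 itself was listed at 0.0285 RPKM in Six2-labelled replicate 1 and at 0 in the other 3 libraries, so this row does not show the labelled overexpression. Whether an introduced copy would be counted in this row is not known, since neither its form nor the annotation used is given. Each direction below is that of the libraries labelled Six2. The epithelial keratin Krt8 was at 972 and 607 RPKM in Six2-labelled replicates 1 and 2, against 1059 and 742 RPKM in control replicates 1 and 2. Cdh1, which encodes E-cadherin, was at 0.186 and 0.103 RPKM in Six2-labelled libraries, against 14.6 and 8.40 RPKM in control libraries. Of 14 epithelial markers in the table, 8 were below the filter used for testing and 7 were under 1 RPKM in every library. Of 22 leukocyte markers in the table, 18 were under 1 RPKM in every library and 5 were at 0 in all of them, among them Cd3g and Adgre1. The summed RPKM of these markers was 14.2 and 7.36 in Six2-labelled replicates 1 and 2, against 18.5 and 10.9 in control replicates 1 and 2, most of it from Cd68 and Cd74.

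Between the groups the members split. In a fit without a term for the replicate number, 0 of the 28 that reached 1 RPKM in at least 2 libraries passed the test over all genes. By the same limma-trend fit on log2(RPKM + 1), with Benjamini-Hochberg adjustment over the 10654 genes tested, 0.0282% of genes were called higher and 0.0845% lower in Six2-labelled libraries. Among the members, 5 were under an unadjusted p of 0.05, as were 1813 of all genes, and limma with voom weights on the recovered reads likewise called 0 members. With a term for the replicate number, limma-trend called 14 of the 28 members, 4 higher and 10 lower. Among all genes tested, 2133 were then called higher and 2506 lower. The labels do not say what a number shares, so this pairing is only a hint from the data. Group p-values below come from the fit without that term. Both Six2-labelled libraries lay above both control libraries for 3 of the 28 members, beside 21.9% of all genes tested, and below them for 7, beside 25.5% of all genes. The other 18 members overlapped between the groups. The median difference of the tested members was -0.09 on the log2 scale, beside -0.01 over all genes tested. The members' share in the lower direction was close to that of all genes, and their share in the higher direction was under it.

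Isg15 (ENSMUSG00000035692.6, GENCODE annotation of GRCm38, chr4:156199424-156200818, minus strand, protein coding), the ubiquitin-like protein that is attached to other proteins during the response, had the largest positive group difference of the tested members. It was at 22.8 and 17.9 RPKM in Six2-labelled replicates 1 and 2, against 9.27 and 8.62 RPKM in control replicates 1 and 2. Both Six2-labelled libraries were above both control libraries, and the means were 20.4 ± 3.45 RPKM in Six2-labelled and 8.94 ± 0.455 RPKM in control libraries (SD, n = 2 each), a ratio of 2.28. The difference was 1.09 on the log2(RPKM + 1) scale (SE 0.149), with a limma-trend adjusted p of 0.102.

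Adar (ENSMUSG00000027951.16, chr3:89715022-89753446, plus strand) encodes the enzyme that edits adenosine to inosine in double-stranded RNA, and its longer form is interferon-inducible. It was at 11.9 and 10.9 RPKM in Six2-labelled replicates 1 and 2, against 7.85 and 7.97 RPKM in control replicates 1 and 2. The groups did not overlap, with a difference of 0.47 (SE 0.103, limma-trend adjusted p = 0.165). The median difference of the tested genes of chromosome 3 was 0.21, and with chromosome medians removed the difference of Adar was 0.26. Its exons overlap those of Chrnb2 on the opposite strand, a gene at no more than 0.741 RPKM. Oasl2, an oligoadenylate synthase-like gene, was at 1.92 and 1.40 RPKM in Six2-labelled libraries, against 1.11 and 1.22 RPKM in control libraries. Its groups lay apart by less than the gap within the Six2-labelled pair, and it did not pass (difference 0.29, limma-trend adjusted p = 0.426).

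Irf1 (ENSMUSG00000018899.16, chr11:53770014-53778374, plus strand), a transcription factor induced most strongly by interferon gamma, lay on the other side. It was at 9.89 and 9.55 RPKM in Six2-labelled replicates 1 and 2, against 16.4 and 15.7 RPKM in control replicates 1 and 2. The libraries of each group were close to each other and the groups did not overlap, with means of 9.72 ± 0.238 RPKM in Six2-labelled and 16.0 ± 0.494 RPKM in control libraries (SD, n = 2 each). The difference was -0.67 (SE 0.0968, limma-trend adjusted p = 0.108).

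Gbp2 (ENSMUSG00000028270.12, chr3:142620602-142638008, plus strand), a guanylate-binding GTPase that attacks the membranes around intracellular microbes, had the largest negative difference. It was at 1.20 and 0.824 RPKM in Six2-labelled replicates 1 and 2, against 2.67 and 2.45 RPKM in control replicates 1 and 2. Its groups did not overlap, with a difference of -0.83 (SE 0.152, limma-trend adjusted p = 0.142), and of -1.04 with chromosome medians removed. The related Gbp3 and Gbp7 stayed under 1 RPKM in every library and were not tested. Gbp7 was at 0.524 and 0.218 RPKM in Six2-labelled libraries, against 0.186 and 0.149 RPKM in control libraries, so its order was the reverse of that of Gbp2, while Gbp3 overlapped between the groups. The 3 Gbp genes are close relatives on chromosome 3, and how shared reads were counted is not given in the sources used here.

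Ifit2, an RNA-binding protein of the response, was at 2.48 and 2.22 RPKM in Six2-labelled libraries, against 3.58 and 3.49 RPKM in control libraries. The groups did not overlap, with a difference of -0.44 (SE 0.117, limma-trend adjusted p = 0.201). The other members with both Six2-labelled libraries below both control libraries were Bst2, Stat2, Ifnar1 and Ifnar2, whose differences ran from -0.37 for Bst2 to -0.18 for Ifnar1. Ifnar1 and Ifnar2, which encode the receptor chains, are neighbours on chromosome 16, where the median difference of all tested genes was -0.22. With chromosome medians removed they differed by 0.04 and 0.02.

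**Figure D2:**
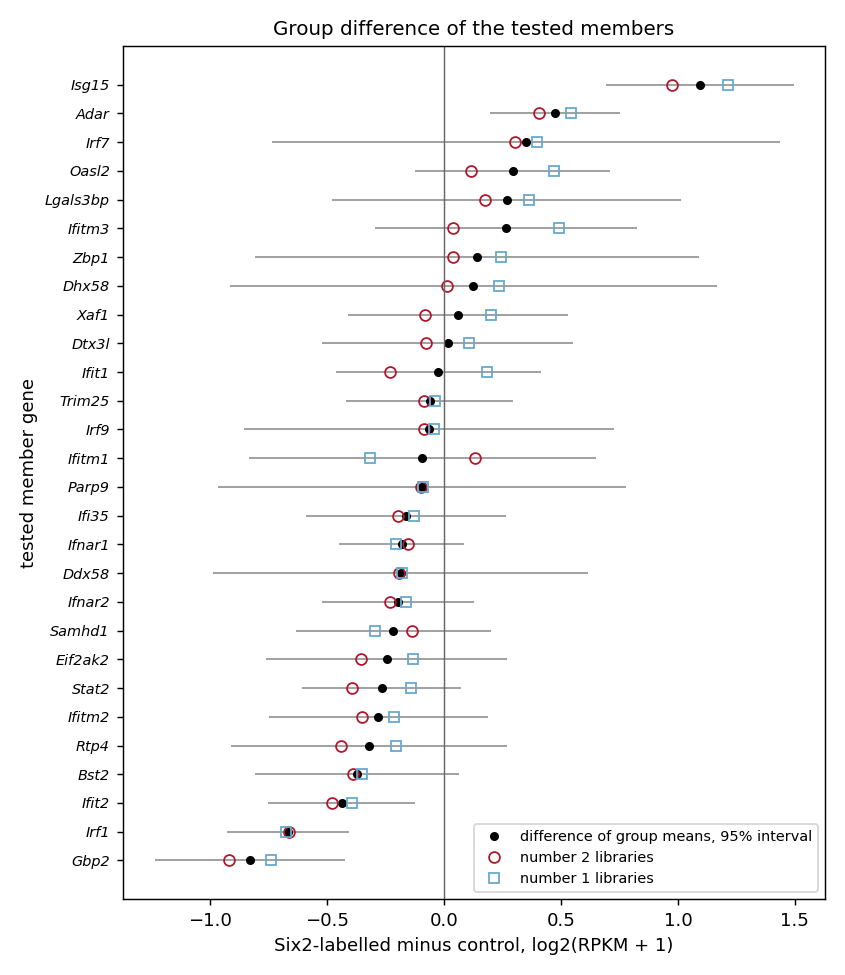
Difference between Six2-labelled and control libraries on log2(RPKM + 1) for the 28 tested members; black points are the difference of group means with its 95% interval before adjustment, red circles the difference between the number 2 libraries and blue squares that between the number 1 libraries. Isg15 stands at 1.09 and Gbp2 at -0.83, and most intervals cross 0.

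Of the 11 members below the filter, 5 had both Six2-labelled libraries above both control libraries, beside 12.3% of the 6025 genes below the filter and above 0 in a library, and 6 overlapped. The 6025 include genes above 0 in only 1 library, which cannot take this order, so that share is a low baseline. Each of the 11 members was above 0 in more than 1 library. The values of these members are low and carry no test. Oas1a (ENSMUSG00000052776.10, chr5:120896256-120907521, minus strand) makes the oligoadenylates that activate RNase L. It had 2.09 and 0.962 RPKM, from 197 and 148 reads, in Six2-labelled replicates 1 and 2. Control replicates 1 and 2 had 0.184 and 0.291 RPKM, from 15 and 23 reads. Its groups lay apart at a ratio of mean RPKM of 6.42, and Six2-labelled replicate 1 was the highest. Oas1a has near-identical relatives beside it, so its value is uncertain. Ifih1, which encodes the RNA sensor MDA5, was at 1.01 and 0.607 RPKM in Six2-labelled libraries, against 0.395 and 0.234 RPKM in control libraries, a ratio of 2.58. Cmpk2, a nucleotide kinase gene next to Rsad2, was at 0.276 and 0.158 RPKM in Six2-labelled libraries, against 0.0655 and 0.112 RPKM in control libraries. In a fit with no filter on low values, the limma-trend adjusted p was 0.249 for Oas1a, 0.307 for Ifih1 and 0.362 for Cmpk2.

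Between the replicate numbers, most tested members were lower in number 2. In a limma-trend fit with a term for the group, 16 of the 28 tested members were lower in number 2 than in number 1, beside 24.1% of all genes tested, and 2 were higher, beside 20.7% of all genes. The other 10 did not pass. Of the 16, Irf7, Dhx58, Zbp1 and Ifitm1 reached the filter only through the number 1 libraries, where they were high, so their entry into the count depended on the difference tested. A filter on the mean over all 4 libraries of 1 RPKM was also used, chosen after seeing the data. With it limma-trend called 16 members lower and 2 higher of 27 tested. Among the 10575 genes in that fit, 2544 were called lower and 2198 higher. Irf7, Dhx58, Zbp1 and Ifitm1 again entered through number 1, since their means in number 2 were 0.608 to 0.871 RPKM. The unchanged count is therefore no check on that dependence. The median difference of the tested members was -0.24, beside -0.01 over all genes. Number 2 was below number 1 in both groups for 22 of the 28 members, beside 43.2% of all genes, and above it in both for 2, beside 39.7%. Both number 2 libraries lay below both number 1 libraries for 16 members, beside 24.6% of all genes. In this count and the one before it, the order was fixed by the filter for Irf7, Dhx58, Zbp1 and Ifitm1. This fit has 1 residual degree of freedom per gene before moderation. Without the group term limma-trend called 0 of the 10654 genes, with 1765 under an unadjusted p of 0.05. With the group term and no filter on low values, limma-trend called 8 of the 39 members lower and 1 higher. Of the 16679 genes in that fit, 1440 were called lower and 1143 higher. The 8 include the pseudogene Mx2, which was below the filter and had 6 to 20 reads per library (limma-trend adjusted p = 0.0408). The 10 members that lost their call with no filter were Isg15, Ifitm1, Ifitm2, Ifitm3, Rtp4, Dtx3l, Trim25, Eif2ak2, Samhd1 and Ifi35, at limma-trend adjusted p of 0.0572 to 0.194. Fewer cells with an active response and less RNA per cell cannot be told apart in bulk RNA.

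Among the receptor and transcription factor genes, 2 of 6 fell in number 2 and 4 did not pass, a share not far from the 24.1% of all genes. Irf7 (ENSMUSG00000025498.15, chr7:141262706-141266481, minus strand), the factor that drives the genes of the type I interferons, was at 0.805 RPKM in Six2-labelled replicate 2 and 0.462 RPKM in control replicate 2. The number 1 libraries had 2.25 RPKM in the Six2-labelled group and 1.47 RPKM in the control group. Irf7 reached the filter only through number 1, so the order of its numbers was fixed by that route. The fall was the largest of the tested members, by 0.80 on the log2(RPKM + 1) scale (SE 0.101, limma-trend adjusted p = 0.00105, and 0.0276 with no filter). Number 1 was 2.80 times number 2 in RPKM within the Six2-labelled group and 3.18 times within the control group. The reads behind these values were 122 and 36 in number 2, against 209 and 118 in number 1.

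Irf7 overlaps exons of Phrf1 on the opposite strand, at 33.6 and 32.7 RPKM in the number 2 libraries (Six2-labelled, then control), against 28.7 and 28.6 RPKM in the number 1 libraries. The strand setting of the counting is not given in the sources used here, and the part of Phrf1 in the values of Irf7 was not tested. Irf9, the DNA-binding partner of STAT2, was at 2.46 RPKM and 2.66 RPKM in the number 2 libraries of the Six2-labelled and control groups, against 4.21 and 4.38 RPKM in number 1. The values were nearly the same in both groups at each number, and Irf9 fell by 0.57 (SE 0.0791, limma-trend adjusted p = 0.00144). It shares exon bases with Rnf31 on the same strand. Irf1, Stat2, Ifnar1 and Ifnar2 differed between the numbers by -0.05, -0.05, -0.06 and -0.14 and did not pass.

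Of 7 tested sensors and regulators of RNA and nucleotides, 4 fell, 1 rose and 2 did not pass. Over all genes tested, 24.1% fell and 20.7% rose. Dhx58, which encodes the RIG-I relative LGP2, was at 0.880 and 0.861 RPKM in the number 2 libraries of the Six2-labelled and control groups, against 2.44 and 1.92 RPKM in number 1. It fell by 0.76 (SE 0.104, limma-trend adjusted p = 0.00138, and 0.0331 with no filter). Ddx58, which encodes the RNA sensor RIG-I, was at 2.18 and 2.63 RPKM in number 2, against 3.77 and 4.40 RPKM in number 1, and fell by 0.58 (SE 0.0799, limma-trend adjusted p = 0.00143). Zbp1, a sensor of nucleic acid in the Z form, was at 0.630 and 0.585 RPKM in number 2, against 1.81 and 1.37 RPKM in number 1. It fell by 0.68 (SE 0.108, limma-trend adjusted p = 0.00249, and 0.0329 with no filter). For Ddx58 both number 2 libraries were below both number 1 libraries. In Dhx58 and Zbp1 that order was fixed, since they reached the filter only through number 1.

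Eif2ak2, which encodes the double-stranded RNA-activated kinase PKR, fell by 0.33, with 6.95 and 9.18 RPKM in number 2 of the Six2-labelled and control groups, against 9.77 and 10.8 RPKM in number 1. Samhd1, which encodes a phosphohydrolase that breaks down deoxynucleotides, went the other way. It was at 28.5 and 31.5 RPKM in number 2, against 22.4 and 27.8 RPKM in number 1, and rose by 0.25 (SE 0.059, limma-trend adjusted p = 0.0113). All number 2 libraries of Samhd1 were above all number 1 libraries. Adar and Oasl2 did not pass. Ifih1, below the filter, was lower in number 2 within each group.

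All 4 tested genes of the ISG15 and ubiquitin pathway fell in number 2, beside 24.1% of all genes. With no filter only Parp9 kept its call (limma-trend adjusted p = 0.0337). Isg15, Dtx3l and Trim25 lost theirs (limma-trend adjusted p = 0.161, 0.101 and 0.0843). Parp9, which encodes a partner of the ubiquitin ligase DTX3L, was at 2.64 and 2.89 RPKM in number 2 of the Six2-labelled and control groups, against 4.68 and 5.05 RPKM in number 1. It fell by 0.64 in each group, with an SE of 0.0768 for the pooled difference (limma-trend adjusted p = 0.00087). Dtx3l, its divergent neighbour whose exons overlap it on the opposite strand, fell by 0.33 (SE 0.0945, limma-trend adjusted p = 0.0263). Reads of the pair cannot be assigned with certainty.

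Trim25, a ubiquitin ligase that acts on RIG-I, fell by 0.20 and Isg15 by 0.21. Isg15 (limma-trend adjusted p = 0.046) was lower in number 2 within each group, but its groups lay further apart than its numbers. After scaling by relative log expression factors Isg15, Trim25 and Ifitm3 no longer passed (limma-trend adjusted p = 0.0836, 0.0583 and 0.0553). Usp18, the protease that removes ISG15 and restrains the receptor, was below the filter, at 0.159 and 0.162 RPKM in number 2, against 0.735 and 0.393 RPKM in number 1. These are 23 and 12 reads in number 2, against 65 and 30 reads in number 1, and both number 2 libraries were below both number 1 libraries. Parp14, also below the filter, was at 0.225 and 0.405 RPKM in number 2 of the Six2-labelled and control groups, against 0.508 and 0.595 RPKM in number 1.

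Of 7 tested effector genes at membranes and on viral products, 4 fell, 1 rose and 2 did not pass, beside 24.1% lower and 20.7% higher of all genes. Of those that fell, Ifitm1 reached the filter only through number 1. Ifitm3 (ENSMUSG00000025492.6, chr7:141009586-141010770, minus strand) was at 609 and 593 RPKM in number 2 of the Six2-labelled and control groups, against 895 and 637 RPKM in number 1. Its fall of 0.33 (SE 0.102, limma-trend adjusted p = 0.0337) came mostly from the Six2-labelled pair, at -0.56 there and -0.10 in the control pair. Ifitm2 was at 341 and 435 RPKM in number 2, against 445 and 516 RPKM in number 1, and fell by 0.31 (SE 0.0605, limma-trend adjusted p = 0.00537). Ifitm1, much less abundant, fell by 0.47 and Rtp4, an interferon-induced chaperone gene, by 0.36, and with no filter neither passed (limma-trend adjusted p = 0.106 and 0.0834). The Ifitm genes are close relatives on chromosome 7, with the same reserve on shared reads.

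Bst2 (ENSMUSG00000046718.8, chr8:71534255-71537456, minus strand), which encodes tetherin, a protein that holds budding virus at the cell surface, rose in number 2. It was at 18.5 and 24.5 RPKM in number 2 of the Six2-labelled and control groups, against 15.2 and 19.7 RPKM in number 1. The rise was 0.28 (SE 0.0542, limma-trend adjusted p = 0.00541) and was seen in each group, and since the groups also lay apart, control replicate 1 stood above Six2-labelled replicate 2. Ifit1 and Ifit2 did not pass, and Ifit1 differed by -0.28 in the Six2-labelled pair and 0.14 in the control pair. Ifit3, below the filter, was at 0.325 and 0.514 RPKM in number 2 of the Six2-labelled and control groups, against 0.692 and 0.580 RPKM in number 1.

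Of the remaining genes, Lgals3bp, which encodes a secreted glycoprotein that binds galectin-3, fell by 0.54 (SE 0.0625, limma-trend adjusted p = 0.000755). It was at 22.4 and 19.8 RPKM in number 2 of the Six2-labelled and control groups, against 35.4 and 27.3 RPKM in number 1, with no overlap between the numbers. Ifi35, an interferon-induced leucine zipper gene, fell by 0.27, while Xaf1, which encodes an antagonist of the apoptosis inhibitor XIAP, differed by -0.22 and Gbp2 by -0.18 without passing. Of the 11 members below the filter, 9 were lower in number 2 within both groups, beside 31.5% of the genes below the filter. Over all 39 members that held for 31, beside 39% of the 16679 genes above 0 in a library. Both shares count genes above 0 in only 1 library, which cannot be lower in both groups, so they are low baselines. Each member was above 0 in more than 1 library. The replicate differences of the 28 tested members had a median of -0.32 in the Six2-labelled pair and -0.14 in the control pair. Between the pairs they correlated at r = 0.81 across genes, which are not independent replicates, beside 0.82 over all genes tested.

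**Figure D3:**
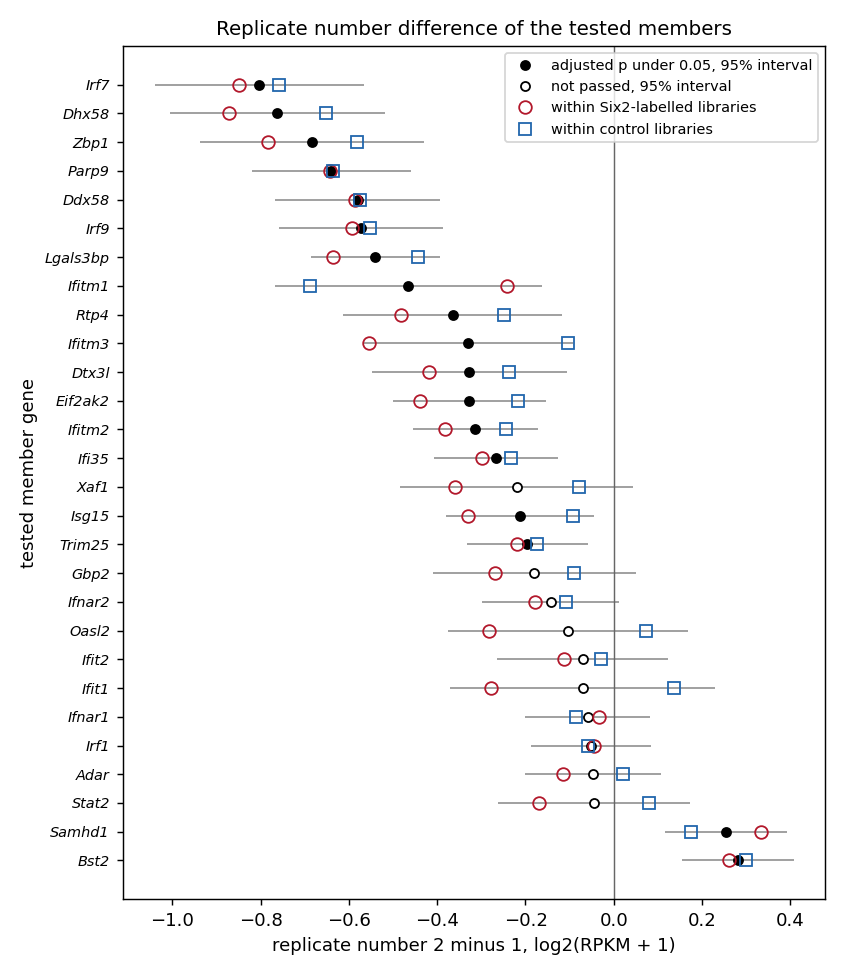
Difference between replicate numbers 2 and 1 on log2(RPKM + 1) for the 28 tested members; black points are the fitted difference with its 95% interval before adjustment, filled where it passed the test, red circles the difference within the Six2-labelled pair and blue squares that within the control pair. Irf7, Dhx58, Zbp1 and Parp9 stand lowest, and Samhd1 and Bst2 are the filled points above 0.

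The promoter matches were also counted by this call, in small numbers and with no test. GAAANNGAA stood in 6 of the 12 members with a window that fell in number 2, in 1 of the 2 that rose and in 4 of the 10 that did not pass. It also stood in 6 of the 7 members with a window that were below the filter. TTCNNNGAA stood in 3 of the 12 that fell, both of the 2 that rose, 5 of the 10 that did not pass and 2 of the 7 below the filter. The cluster of matches shown above for Isg15 and Ifit1 belonged to a gene that fell by 0.21 and to a gene that differed by -0.07 without passing, and that of Bst2 to a gene that rose.

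Other genes of the pathway were taken from lists. The 14 interferon ligand genes were all below the filter, at most 0.140 RPKM in a library, and 10 of them were at 0 everywhere. A transcript of a ligand was therefore hardly detectable at this depth. Of 22 tested receptors, kinases, factors and regulators outside the members, 10 fell (45.5%) and 2 rose (9.09%) in number 2, beside 24.1% and 20.7% of all genes. Between the groups 0 were called, with 3 under an unadjusted p of 0.05. Jak2, which encodes a receptor-associated kinase, fell by 0.29 and Irf2, a repressor of the response, by 0.30. Irf2bpl, Ptpn6 and Irf2bp2 fell by 0.43, 0.33 and 0.29. Socs1, which encodes a feedback inhibitor of the kinases, rose by 0.51, and Irf2bp1 rose by 0.39. Ptpn11 was among the most abundant of the list and did not pass in either comparison.

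Of 24 tested genes of nucleic acid sensing, 6 fell (25%) and 4 rose (16.7%) in number 2, shares near the 24.1% and 20.7% of all genes, with 0 called between the groups and 2 under an unadjusted p of 0.05. Tlr4, a receptor for bacterial lipopolysaccharide, fell by 0.62, Tlr3, a receptor for double-stranded RNA, by 0.38, and Tmem173, which encodes the adaptor STING, by 0.29. Trex1, Traf6 and Tank fell by 0.29, 0.24 and 0.16. Mavs, the mitochondrial adaptor of RIG-I and MDA5, rose by 0.44, Traf3 by 0.43, G3bp1 by 0.42 and Mb21d1, which encodes the DNA sensor cGAS, by 0.38. Pqbp1, one of the most abundant, did not pass.

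Of 49 tested further stimulated genes, 22 fell (44.9%) and 2 rose (4.08%) in number 2, beside 24.1% and 20.7% of all genes. Their median was -0.21, and 0 were called between the groups with 11 under an unadjusted p of 0.05. Casp4 and Casp1, the inflammatory caspases, fell by 1.59 and 1.11. Slfn2, Ifitm6, Ifi27 and Stat3 fell by 1.07, 1.03, 0.98 and 0.71. Pnpt1 rose by 0.33 and Ifi203 by 0.27. Plscr1, one of the most abundant with Casp1, fell by 0.44, and Lap3 did not pass. Casp1 was at 50.3 and 46.4 RPKM in number 2 of the Six2-labelled and control groups, against 144 and 77.4 RPKM in number 1, so all number 2 libraries were the lower ones.

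**Figure D4:**
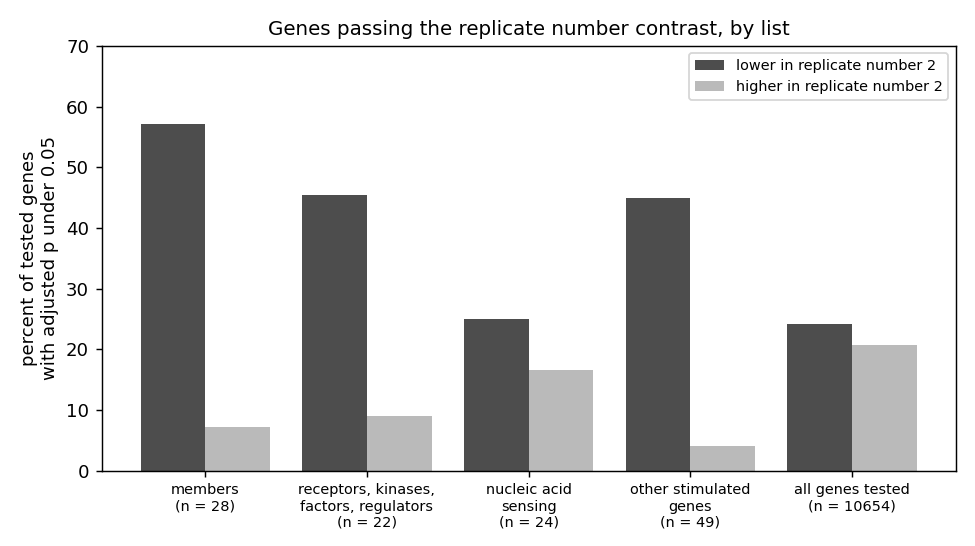
Percent of the tested genes of each list that passed the limma-trend test between replicate numbers, with dark bars for genes lower and light bars for genes higher in number 2. The members stand at 57.1% lower and 7.14% higher, the further stimulated genes at 44.9% and 4.08%, and all genes tested at 24.1% and 20.7%. The 57.1% includes Irf7, Dhx58, Zbp1 and Ifitm1, which reached the filter only through number 1, so their order was fixed by it. That route was not followed for the genes of the other lists.

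Some markers of other cell types also differed between the numbers. Of the leukocyte markers, 2 were tested, and both fell in number 2, Cd68 by 0.72 and Cd74 by 0.57. Pdgfra, the only fibroblast marker tested, fell by 0.60, while 9 of the 10 fibroblast markers were under 1 RPKM in every library. Of the 6 tested epithelial markers 4 fell, beside 24.1% of all genes, among them Krt18 by 0.79 and Krt8 by 0.59. Neither of the 2 tested endothelial markers passed. Of the markers of interferon-producing plasmacytoid dendritic cells, 2 were tested: Tcf4 fell by 0.54, and Bst2, itself a member, rose. The pan-leukocyte marker Ptprc was at no more than 0.00433 RPKM in any library. The summed RPKM of the 10 fibroblast markers was 5.19 and 5.28 in number 2 of the Six2-labelled and control groups, against 7.45 and 10.1 in number 1. The part of any of these cell types in the differences of the members was not tested.

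Aim2 was chosen for mention after its values were seen. This sensor of cytosolic DNA was at 5.40 and 5.43 RPKM in Six2-labelled libraries, against 1.18 and 0.922 RPKM in control libraries, a difference of 1.65 (limma-trend adjusted p = 0.0592). It did not pass the test.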

How the data were processed

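The authors deposited a table of RPKM values for 24421 genes in 4 libraries, and 0 value columns were left out. Per the labels' protocols, libraries were made with a stranded mRNA kit. Per the submitters' processing notes, reads were handled with HTSeq 0.8.0, TopHat2 2.1.1 and Bowtie2, with Picard 2.9.4, SAMtools 1.5, FastQC 0.11.5 and bcl2fastq 1.8.4 also named. No source used here gives the annotation, gene lengths, strand setting or treatment of shared reads.

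Read totals were recovered from the RPKM steps, which gave whole reads within 0.001 for 14457 of the 14459 genes above 0 in 3 or more libraries. limma 3.58.1 in R 4.3.3 was fitted to log2(RPKM + 1), with variances following a trend, for 10654 genes that reached 1 RPKM in 2 or more libraries. Tests were two-sided with Benjamini-Hochberg adjustment over those genes and a threshold of 0.05. This scale understates the change of low genes. The fit of the groups had no covariate, and the fit of the replicate numbers had the group as a term. Fits were tested on simulated data. Coordinates come from GENCODE annotation of GRCm38 and promoters from RefSeq.

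The members and lists were chosen with earlier results of these data known. All members are named, with the tested list genes that passed, up to 6 in each direction, the 3 most abundant per list and Six2. Some list genes that this rule would name are not reported here. Alternatives covered scaling, pseudocount, filter, voom weights, chromosome medians, the replicate block and leaving out libraries.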

Additional observations from a re-analysis of the deposited data

Results flagged for a closer look

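For 7 of the 28 tested members the difference moved opposite ways in the 2 groups or in the 2 replicate numbers. With 4 libraries the difference of differences has no replicate of its own and was not tested. The values are on the log2(RPKM + 1) scale. Number 2 minus number 1 in the Six2-labelled pair, less the same in the control pair, was -0.42 for Ifit1, -0.35 for Oasl2, -0.25 for Stat2 and -0.14 for Adar, each below 0 in the Six2-labelled pair and above 0 in the control pair. Six2-labelled minus control in the number 2 libraries, less the same in the number 1 libraries, was 0.45 for Ifitm1, -0.42 for Ifit1, -0.28 for Xaf1 and -0.18 for Dtx3l. Ifitm1 was above 0 in number 2 and below 0 in number 1, and the other 3 were the reverse.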

How the results depend on the processing

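Between the groups, 0 members were called by limma-trend under each alternative for scaling, pseudocount, filter and chromosome medians. With voom weights, limma also called 0 members. The number of genes called, 12 with all libraries, was 28 with relative log expression factors, 0 with no filter (2503 under an unadjusted p of 0.05), 1 with a filter of 5 RPKM and 11 to 68 with a library left out, namely 68 when Six2 replicate 2, 35 when Six2 replicate 1 and 31 when control replicate 2 was the one omitted. With the replicate block, the same fit as for the numbers, 4639 genes and 14 members were called, 4 higher and 10 lower. The labels do not say what a number shares, there are only 2 pairs, and the replicate differences of the 2 groups correlated at 0.82 over all genes, so this pairing is a hint from the data. Chromosome medians removed turned 4 uncalled differences, to 0.11 for Ifit1, 0.12 for Parp9, 0.0362 for Ifnar1 and 0.021 for Ifnar2, and voom weights turned Dtx3l to -0.029. With a library left out, uncalled differences changed sign for 13 members: -0.0751 to 0.77 for Irf7, -0.36 to 0.23 for Irf9, -0.44 to 0.25 for Ifitm1, -0.48 to 0.11 for Ddx58, -0.42 to 0.23 for Parp9, -0.17 to 0.0473 for Trim25, -0.16 to 0.12 for Ifit1, -0.31 to 0.56 for Dhx58, -0.19 to 0.22 for Dtx3l, -0.25 to 0.53 for Zbp1, -0.0133 to 0.54 for Ifitm3, -0.12 to 0.24 for Xaf1 and -0.0489 to 0.59 for Lgals3bp. Between the numbers, 18 members and 4771 genes were called. With no filter 9 of 39 members and 2583 of 16679 genes were called, and without the group term 0 and 0. With a filter of 5 RPKM, 7 of the 13 members tested were called lower and 2 higher. Of the 8333 genes tested with that filter, 2022 were called lower and 1993 higher. The cause of these shifts was not tested. A library left out gives no test between the numbers. Between the groups, the lone library that is left is assumed to vary like the other pair.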
